A study of Mus musculus with 2 samples.

Results

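The guanylate-binding proteins are a family of large GTPases that bind and hydrolyze guanine nucleotides. In the mouse their genes lie in a cluster on chromosome 3 and another on chromosome 5, and most of them are known to be switched on by interferons, interferon gamma above all. Within cells they coat the membranes of vacuoles that hold parasites or bacteria, act together with the immunity-related GTPases, and help to expose bacterial products to inflammasomes. The 10 genes described here (Gbp2, Gbp3, Gbp4, Gbp5, Gbp6, Gbp7, Gbp8, Gbp9, Gbp10 and Gbp11) were selected on the signals of the same arrays, since the family was picked with its higher signal in EP4 cKO colon already in view, so that every value below is a description and none is tested. A probe belonged to a gene when its RefSeq accession mapped to that symbol. By this rule 9 of the 10 genes had a probe, 10 probes in all, among 22909 genes with a named probe on the arrays. Gbp11, which RefSeq lists as a transcribed pseudogene, had no probe by this rule and was not analysed here.

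RNA of whole colon was compared between mice with Villin-Cre, in which the villin promoter drives Cre recombinase in the intestinal epithelium, and mice with Villin-Cre and both EP4 alleles floxed (Villin-Cre; EP4flox/flox, EP4 cKO). The strain was C57BL/6 by the labels, both groups carried Villin-Cre, and the methods give an age of 8 weeks. There was 1 array per genotype on the same slide, read in the same scan, and its RNA was combined from 3 pools of colon by the labels. Thus no spread between mice can be given, no p-value is given, and each difference is between these 2 arrays only.

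Each array was brought to a trimmed mean of 2500, and the result is called the normalized signal here, and the ± after a signal is the 1 SD error that the scanner software estimated for the spot. Over the probes with 10 spots each and a signal well above background in all of them, the SD of the log2 ratio between spots had a median of 0.035 (287 probes). The software marks each spot as well above background or not, and the lowest normalized signal with that mark, the floor of the array, was 125 in Villin-Cre and 57.8 in EP4 cKO. Scaling to the E1A control spots instead would add 1.04 to the log2 ratio of every gene measured on both arrays. Ptger4, the gene of EP4, had normalized signals of 6227 and 5661 by its brighter probe (log2 ratio -0.14, and above 0 with scaling to the 75th percentile, with scaling to the E1A control spots and as the mean of both probes) and 393 and 592 by the dimmer one. Where these probes lie relative to the floxed part of the gene is not given in the sources used here, so they do not check the genotype, and all directions below are those of the genotype labels. All 10 epithelial markers were well above background on both arrays.

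The 250 bases before the start site are shown for the 4 members with a promoter in the RefSeq table (build GRCm38.p6), because these genes lie together in the cluster of chromosome 3 and all 4 had a higher signal on the EP4 cKO array, and for Gbp2b, the family gene between them that was dim on both arrays. Capitals mark matches to 2 motifs of interferon signalling: the gamma-activated site (TTCNNNGAA) and the interferon-stimulated response element bound by Irf factors (GAAANNGAAA, which reads TTTCNNTTTC on the other strand). All windows are on the plus strand and are written 5′ to 3′, for Gbp5 at chr3:142496684-142496933, Gbp7 at chr3:142530086-142530335, Gbp3 at chr3:142559794-142560043, Gbp2b at chr3:142594597-142594846 and Gbp2 at chr3:142620413-142620662.
Gbp5: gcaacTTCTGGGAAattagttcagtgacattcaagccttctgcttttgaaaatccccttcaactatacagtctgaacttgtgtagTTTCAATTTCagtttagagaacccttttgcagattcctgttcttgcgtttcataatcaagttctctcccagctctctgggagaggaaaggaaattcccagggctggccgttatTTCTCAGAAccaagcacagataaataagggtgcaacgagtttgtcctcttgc
Gbp7: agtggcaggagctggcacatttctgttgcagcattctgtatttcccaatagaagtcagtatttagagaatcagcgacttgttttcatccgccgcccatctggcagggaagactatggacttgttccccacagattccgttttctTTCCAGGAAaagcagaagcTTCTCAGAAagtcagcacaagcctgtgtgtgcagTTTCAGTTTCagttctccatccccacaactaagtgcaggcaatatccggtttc
Gbp3: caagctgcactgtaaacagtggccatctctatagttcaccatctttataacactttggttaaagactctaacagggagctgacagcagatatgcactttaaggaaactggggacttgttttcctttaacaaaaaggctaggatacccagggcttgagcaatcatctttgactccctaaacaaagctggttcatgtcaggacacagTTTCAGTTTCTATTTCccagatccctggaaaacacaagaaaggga
Gbp2b: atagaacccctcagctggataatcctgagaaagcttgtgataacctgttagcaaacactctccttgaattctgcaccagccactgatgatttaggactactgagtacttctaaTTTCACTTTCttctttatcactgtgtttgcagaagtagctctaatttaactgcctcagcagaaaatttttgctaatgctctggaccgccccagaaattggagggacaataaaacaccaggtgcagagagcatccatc
Gbp2: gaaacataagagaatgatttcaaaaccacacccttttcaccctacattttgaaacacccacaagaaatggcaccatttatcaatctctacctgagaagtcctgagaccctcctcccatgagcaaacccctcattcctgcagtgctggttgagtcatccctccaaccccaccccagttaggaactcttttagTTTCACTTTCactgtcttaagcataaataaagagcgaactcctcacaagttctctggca

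Both motifs were searched on both strands in windows of 300 bases, from 250 before to 50 after each start site. The response element was found in the windows of all 5 genes, and its matches began 59 bases before the start site in Gbp2, 53 in Gbp7, 165 in Gbp5, 137 in Gbp2b, and 45 and 39 in Gbp3, where they overlap. The gamma-activated site was found in Gbp5 (245 and 52 bases before the start site) and Gbp7 (106 and 87 bases before it). A second window of Gbp3, for another start site, held neither. Of all 32851 windows of the table, 3.44% held the response element, 8.30% the gamma-activated site and 0.454% both, as those of Gbp5 and Gbp7 did. A match is a description of these letters and not a measurement of binding, and Gbp2b holds the element as its neighbours do although its probe was not well above background. Gbp4, Gbp6, Gbp8, Gbp9, Gbp10 and Gbp11 had no entry in this table.

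Of the family, 7 of the 8 members with a value were more than 2-fold higher in EP4 cKO and 0 were more than 2-fold lower, against 4.88% higher and 7.98% lower among the 14679 genes that had a value (7.68% and 5.24% after loess). The 8 members had a median log2 ratio of 2.59, and all genes one of -0.10. Of these 7, 4 (Gbp4, Gbp5, Gbp6 and Gbp8) had a value only because they were well above background in EP4 cKO, so a value below 0 was not possible for them. Of all 1502 genes with such a bound 13.2% exceeded 2-fold by their bound, and of the 12808 genes measured on both arrays (well above background on each) 4.05% were more than 2-fold higher. Since the family was chosen for this contrast, these shares are background and nothing is read from them.

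Gbp2, which carries a prenylated tail and is recruited to the vacuoles of Toxoplasma, gave 719.9 ± 77.1 normalized units in Villin-Cre and 38141 ± 3814 in EP4 cKO. This is 53.0-fold (log2 ratio 5.73, with an error of 0.21 from the scanner software) and stood at rank 15 by log2 ratio of the 12808 genes measured on both arrays. Gbp3 had 165 ± 34.2 and 8505 ± 851, or 51.5-fold (log2 ratio 5.69, error 0.33), at rank 16. The log2 ratios of Gbp2 and Gbp3 differed by 0.04, less than their combined error of 0.39. These were the largest differences among the 4 members measured on both arrays, and the members with a bound cannot be placed in this order.

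Gbp7, also a cytosolic GTPase of host defense, had 141 ± 29.6 in Villin-Cre, close to the floor of that array, and 1017 ± 102 in EP4 cKO. Its ratio of 7.19-fold (log2 ratio 2.85, error 0.34) was at rank 70. It lay 2.84 below that of Gbp3 on the log2 scale, with a combined error of 0.47. Thus as scaled here Gbp2 and Gbp3 could not be ordered, although after normexp with quantile normalization they had 5.48 and 4.62. Gbp7 stood below both by more than the error of the spots, which says nothing of the spread between mice.

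For Gbp4, Gbp5, Gbp6 and Gbp8 the Villin-Cre side was not well above background, so its floor was used and each fold is a bound. Gbp5, which also ends in a prenylation motif and is known for a part in inflammasome activation, had 49.2 ± 27.9 and 803 ± 81.2 and was at least 6.40-fold higher. Gbp6 had 25.9 and 714 ± 72.4 and was at least 5.69-fold higher. Gbp4 had 29.8 ± 29.9 and 549 ± 56.6 and was at least 4.38-fold higher. In Villin-Cre the errors of Gbp4 and Gbp6 were as large as their signals, whereas in EP4 cKO all 4 genes stood clearly above the floor.

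Gbp8 had 2 probes, the only member with more than 1. The brighter probe had 30.5 ± 30.6 and 424 ± 44.7 and was at least 3.38-fold higher, and the dimmer had 26.7 ± 26.8 and 154 ± 19.7 and was at least 1.23-fold higher. Only in EP4 cKO were these probes well above background, and the brighter stood further above the floor. The mean of both bounds gave a log2 ratio of 1.03, just past 2-fold.

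The members of chromosome 5 also include Gbp10, which was within 2-fold, and Gbp9, which had no value. Gbp10, measured on both arrays, had 499 ± 59.2 in Villin-Cre and 321 ± 35.3 in EP4 cKO, which is -0.64 as a log2 ratio (error 0.23) and 0.40 with scaling to the E1A control spots. The 24734 probes measured on both arrays, some of them of the same gene, were cut into 10 bins by mean signal, and in bin 3, which holds the probe of Gbp10, log2 ratios had a median of -0.26 and ran from -1.02 to 0.49 without the lowest and highest 10%. Gbp10 lay inside this range. Gbp2, Gbp3 and Gbp7 lay above the same range of their own bins, whose upper ends were 0.60, 0.51 and 0.52. Gbp10 stood 3.48 below Gbp7 on the log2 scale, with a combined error of 0.41.

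Gbp9 was well above background on neither array, with 31.8 ± 31.9 and 66.7 ± 16.2, and has no fold. Gbp2b, the former Gbp1 and not among the 10 genes, was dim on both arrays too, with 27.1 ± 27.2 and 12.5 ± 12.5. Members of the family are close in sequence, and whether a probe of one also bound the RNA of another was not tested, as the letters of the probes were not used here. No spot of the family was saturated.

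**Figure D1:**
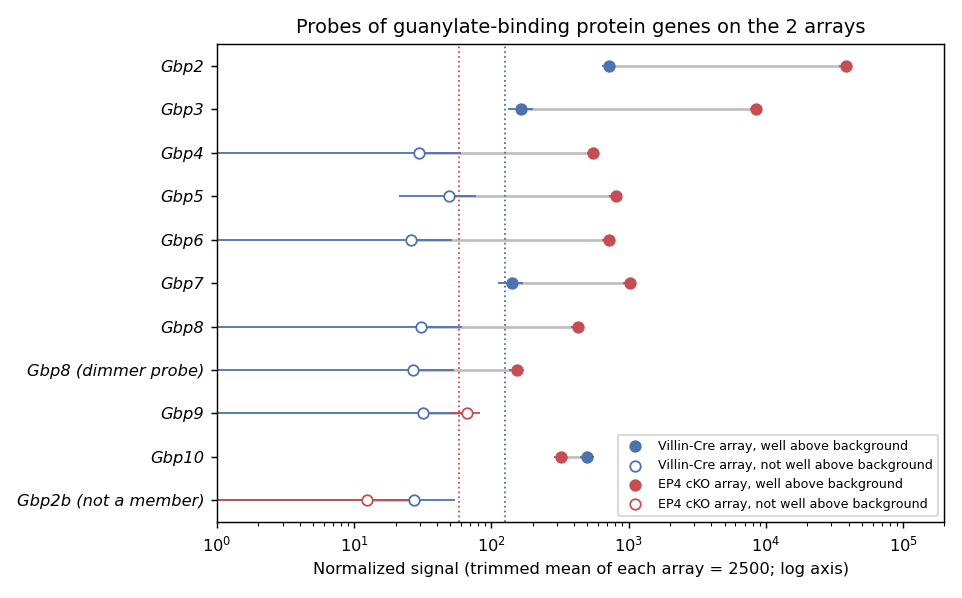
Normalized signal (log axis) of each probe of the family on the Villin-Cre array (blue) and on the EP4 cKO array (red), with filled points well above background, open points not, bars for the error of the scanner software (cut at the left edge where the error reaches the signal) and dotted lines at the floors of 125 and 57.8. The red point lies to the right of the blue one for every member except Gbp10, with 499 and 321 (Gbp2b, shown at the bottom, is no member), and the open blue points of Gbp4, Gbp5, Gbp6 and Gbp8 lie left of the floor.

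**Figure D2:**
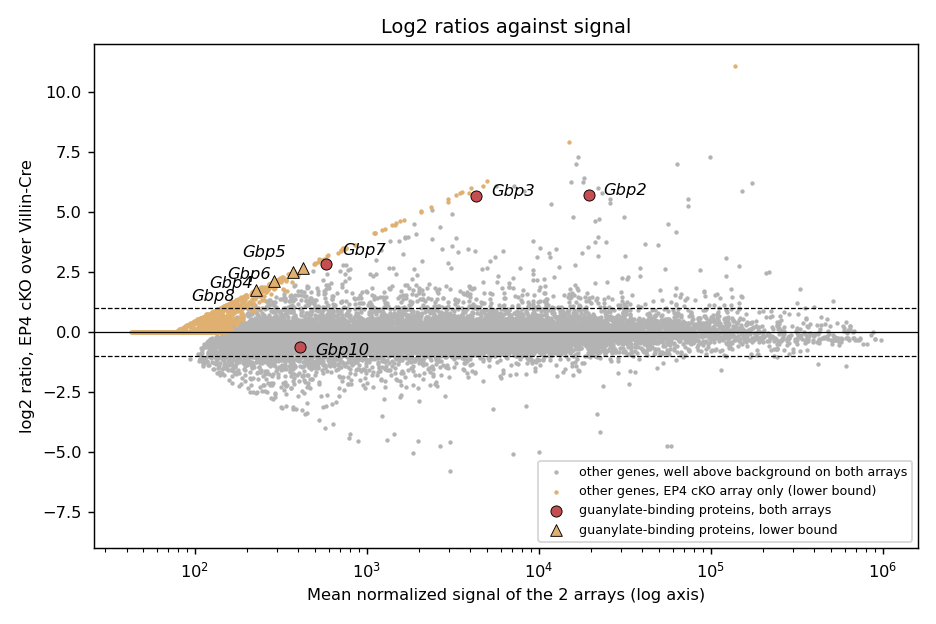
Log2 ratio of EP4 cKO over Villin-Cre against the mean normalized signal (log axis), 1 point per gene for genes well above background on both arrays (grey) or on the EP4 cKO array only (orange, lower bounds, held at 0 where no fold above 1 was seen), and with the family in large symbols; dashed lines mark 2-fold. Gbp2 (5.73) and Gbp3 (5.69) stand far above the grey band, the triangles of Gbp4, Gbp5, Gbp6 and Gbp8 lie on the edge that the floor sets, and Gbp10 (-0.64, above 0 when scaled to the E1A control spots) lies inside the band.

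The clusters were then set side by side. On chromosome 3, all 4 members had a value, and they ran from 2.68 (Gbp5, a bound) to 5.73 with a median log2 ratio of 4.27. On chromosome 5, 4 of the 6 members had a value and 3 were more than 2-fold higher, with a median of 1.95. These 3 (Gbp4, Gbp6 and Gbp8) were higher by a bound, which cannot lie below 0. Gbp10, the only member there measured on both arrays, was at -0.64. Of the values on chromosome 5, 3 are bounds, against 1 on chromosome 3, so that the medians cannot be set against each other as sizes. Along chromosome 5, Gbp10 lies between Gbp4 and Gbp6, both at least 4.38-fold higher.

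Of the 4 nearest protein-coding genes on each side of the chromosome 3 cluster, 4 had a value: Pdlim5 (log2 ratio 0.61) before it, and Kyat3 (-0.58), Gtf2b (0.30) and Pkn2 (-0.28) after it. Around the chromosome 5 cluster, Lrrc8b (0.88) and Lrrc8d (-0.13) had a value, and both encode subunits of a volume-regulated anion channel. As scaled here none of these 6 genes was past 2-fold, but Lrrc8b was with the 75th percentile (1.04), a trimmed mean over all spots (1.01), loess (1.20) and the E1A control spots (1.92), and Pdlim5 (1.64) and Gtf2b (1.34) were with the E1A control spots. The order of genes was taken from RefSeq (GRCm38.p6).

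**Figure D3:**
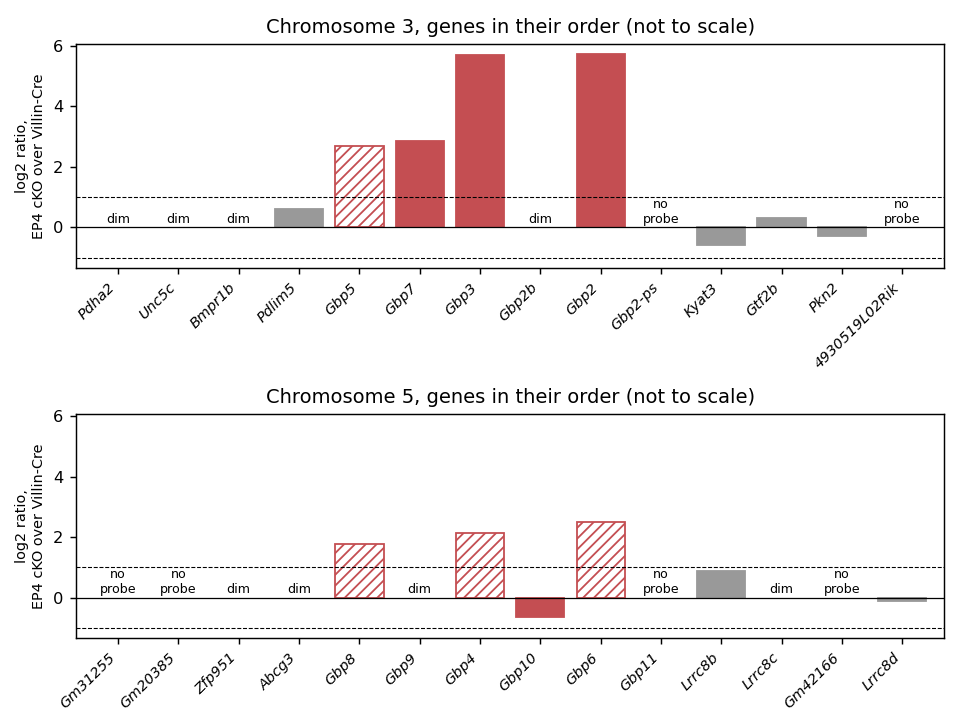
Log2 ratio of EP4 cKO over Villin-Cre for the genes of each cluster and the 4 protein-coding genes on each side, in their order along the chromosome (not to scale); red bars are members, grey bars neighbours, hatched bars lower bounds, dashed lines 2-fold, and "dim" means that neither array was well above background. The bars of Gbp3 (5.69) and Gbp2 (5.73) are the tallest, the neighbours stay between -0.58 and 0.88, and Gbp10 (-0.64, above 0 when scaled to the E1A control spots) points down between Gbp4 and Gbp6.

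Gene lists of the pathway were described by their counts and medians. The list named interferon gamma signalling here, after a pathway that induces the family, had all 12 genes measured on both arrays. Of these, 5 passed 2-fold upward and 0 downward (median log2 ratio 0.73, compared with -0.10 over all genes). All 5 were factors or feedback inhibitors, and whether interferon gamma or another interferon acted on them was not tested. The ligand Ifng had 149 and 177 (log2 ratio 0.25, error 0.33), little above the floor of the Villin-Cre array. The receptor chains Ifngr1 (0.26) and Ifngr2 (0.36) and the kinases Jak1 (0.17) and Jak2 (0.86) were within 2-fold. Of the factors that act on the promoters, Stat2 was 3.67-fold higher by its brighter probe (2877 and 10562; the other had 62.3, dim, and 99.3, below the floor of Villin-Cre, so its bound was held at 0 and the mean of both was 0.94), Irf9 3.36-fold and Irf1 2.56-fold, whereas Irf8 (0.59) and Irf2 (0.14) were within 2-fold. The feedback inhibitors Socs1 and Socs3 were 4.99-fold and 3.23-fold higher. Jak2 passed 2-fold with the 75th percentile (1.02) and after loess (1.01). With the E1A control spots all 12 genes of the list, ligand and receptor included, were more than 2-fold higher.

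The immunity-related GTPases, some of which load onto pathogen vacuoles together with the guanylate-binding proteins, had 7 of 8 genes with a value. All 7 were more than 2-fold higher, with a median log2 ratio of 4.73 against 2.59 for the family. Tgtp2 was 127-fold and Ifi47 76.2-fold higher, and Iigp1 went from 33.3, not well above background, to 30017, at least 239-fold. Over genes measured on both arrays alone the medians were 4.73 (5 genes) and 4.27 (4 members). The lowest of the list, Irgm1, was 6.36-fold higher, and no gene of it had a value like that of Gbp10.

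A list of dynamins, atlastins, mitofusins and Opa1, large GTPases of the dynamin superfamily, had a median of 0.13 (9 of 10 genes with a value). Other members of the superfamily were not in this list, so nothing is said of them. Dnm1, a dynamin of synaptic vesicle uptake, was 3.34-fold higher by its brighter probe but at 468 and 462 by the other. Atl1, an atlastin that fuses membranes of the endoplasmic reticulum, was at least 4.32-fold lower. Opa1, which fuses inner mitochondrial membranes, had -0.33. The enzymes that prenylate and trim CaaX tails, such as those of Gbp2 and Gbp5, had 0 of 6 genes past 2-fold in either direction, with Fnta (-0.49), a subunit of the prenyltransferases, Rce1 (-0.18) and Icmt (0.09). The LC3 conjugation genes, through which these GTPases are known to be directed to vacuoles, likewise had 0 of 11 past 2-fold, with Gabarapl1 (-0.98), Map1lc3b (0.41) and Atg3 (0.40). With the E1A control spots 6 genes of the dynamin list, 4 of the CaaX list and 6 of the LC3 list were more than 2-fold higher, and with the mean of all probes 0 of the dynamin list were.

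The inflammasome list, whose sensors read bacterial products that the family exposes, had 3 of 7 measured genes more than 2-fold higher and 1 lower, with a median of 0.53. Casp4, the caspase that binds lipopolysaccharide, was 3.08-fold and Gsdmd, the pore-forming gasdermin D, 2.17-fold higher by its brighter probe (log2 ratio 0.85 by the other and 0.98 as their mean), and Il1b was at least 3.44-fold higher. Il18, a cytokine made by the epithelium, went from 72176 to 25559 (log2 ratio -1.50). Casp1 (0.53), Pycard (0.29) and Aim2 (-0.16) were within 2-fold, and Nlrp3 was dim on both arrays.

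**Figure D4:**
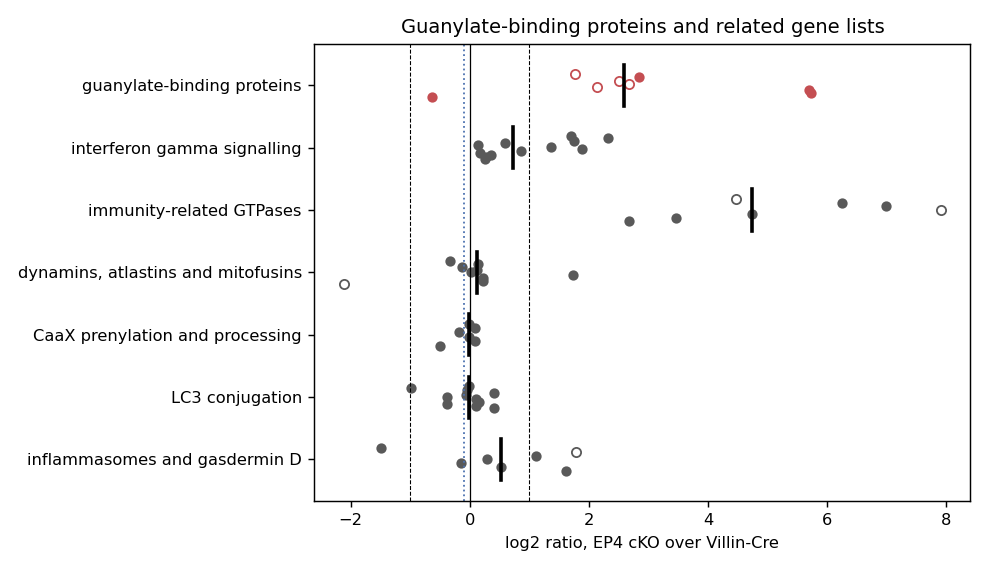
Log2 ratio of EP4 cKO over Villin-Cre of each gene with a value in the family (red) and in 6 related lists (grey), with open points for bounds, black bars at the medians, dashed lines at 2-fold and a dotted line at the median of all genes (-0.10). The medians of the family (2.59) and of the immunity-related GTPases (4.73) lie past 2-fold, whereas those of the other lists lie between -0.01 and 0.73 (between 1.02 and 1.76, past 2-fold, when scaled to the E1A control spots).

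Outside the family, the 5 genes measured on both arrays whose log2 ratio (over these 2 arrays) was nearest to its median of 2.59 were Ifitm3 (2.60), which restricts the entry of viruses, Kyat1 (2.58), Sulf2 (2.58), Cd177 (2.61) and Cma2 (2.61). That median lies midway between the bounds of Gbp6 and Gbp5 and was 4.27 over the members measured on both arrays, so the floor of the Villin-Cre array sets which genes are nearest, and no likeness is read from them.

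Markers of cell types also differed between the arrays. Whole colon holds many cell types, and more cells of a type and more RNA per cell cannot be told apart. The leukocyte list (5 of 6 genes well above background on each array) had a summed normalized signal of 3428 in Villin-Cre and 8382 in EP4 cKO, 2.44-fold. Of its 5 measured genes, Coro1a (log2 ratio 1.53), Rac2 (1.49) and Cd52 (1.43) were more than 2-fold higher, whereas Ptprc (0.97) and Laptm5 (-0.58) were within 2-fold. Ptprc lay just under the threshold as scaled here. The 75th percentile and the trimmed mean over all spots shift all genes measured on both arrays alike. They took Lrrc8b from 0.88 past 2-fold, so Ptprc passes under both as well. The T and NK cell list, whose cells make interferon gamma, had sums of 13338 and 14480, with 7 and 10 of 10 genes well above background. Past 2-fold were 4 of them upward: Gzmb (at least 4.56-fold), Cd8b1 (log2 ratio 1.44), Nkg7 (1.42) and Cd3g (1.28). Of the others, 1 was past 2-fold downward (Prf1, -2.16), while Cd3e (-0.10) and Cd4 (0.18) were within 2-fold. Cd4 (6749 and 7641) and Cd3e (3069 and 2861) were the brightest of the list and made up most of its sums. The macrophage list had 55432 and 73285 with 4 and 8 of 10 genes well above background, and Itgam alone made up 49347 and 68598 of these sums. Csf1r (-0.79) and Cd68 (-0.09) were within 2-fold, Mrc1 was at least 4.31-fold and Cx3cr1 at least 2.04-fold higher, and Adgre1 and Lyz2 were dim on both arrays. The B cell list had 407 and 510 with 1 and 3 of 6 genes well above background. The fibroblast list had 13802 and 314, with Dcn (-5.77) and Col1a2 (-5.03), and each of the 6 genes with a value was past 2-fold downward. The epithelial list had a ratio of sums of 1.16, with Krt20 3.48-fold higher and the other 9 genes within 2-fold. The smooth muscle list had one of 1.53, with Acta2 (0.62) and Actg2 (0.72) the brightest and Cnn1 6.62-fold lower, and the endothelial list one of 0.943 over 3 of 7 genes. The part of these differences in the signals of the family was not tested.

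**Figure D5:**
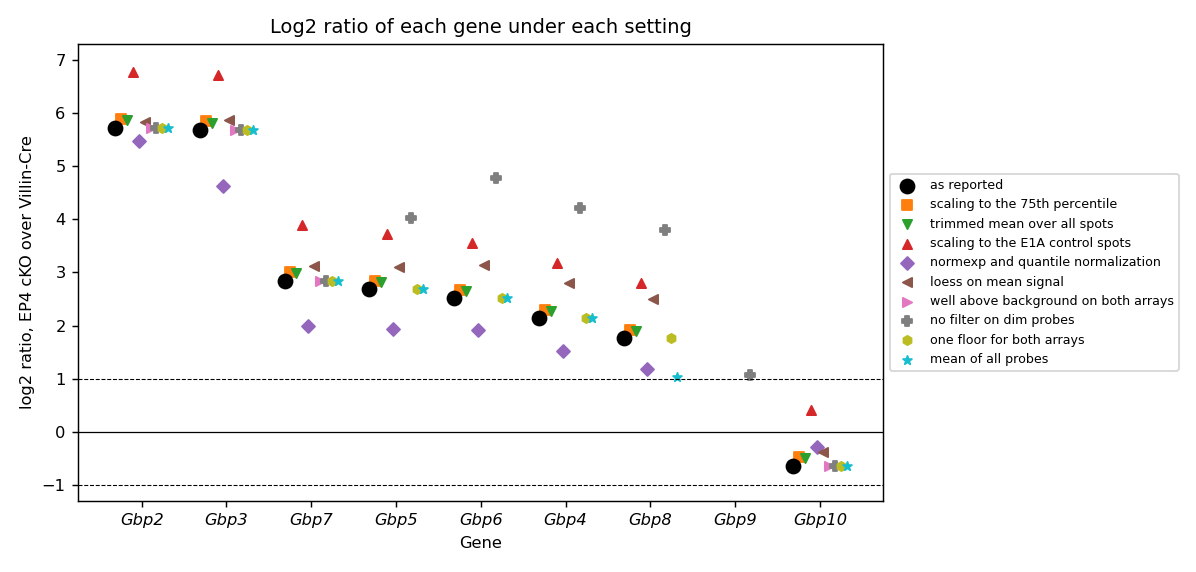
Log2 ratio of EP4 cKO over Villin-Cre of each member as reported (black) and under each other scaling, background correction, filter or choice of probe (coloured), with dashed lines at 2-fold; values of dim probes are bounds except without a filter. The points of Gbp2, Gbp3, Gbp4, Gbp5, Gbp6, Gbp7 and Gbp8 lie above 2-fold under each setting that gave a value, the lowest being Gbp8 as the mean of its probes (1.03), and Gbp10 lies below 0 except with scaling to the E1A control spots (0.40).

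The settings moved the sizes within the family. The log2 ratio of Gbp2 stayed between 5.48 and 6.76 and that of Gbp3 between 4.62 and 6.72, and Gbp7 ran from 1.99 to 3.88. Among the bounds, Gbp6 was between 1.92 and 4.78, Gbp4 between 1.52 and 4.20, Gbp5 between 1.93 and 4.03, and Gbp8 between 1.03 and 3.80. The highest values of these 4 were those with each dim probe at its own signal. Gbp9 had a value in that setting only (1.07), and neither of its signals was well above background.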

How the data were processed

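Colon RNA of either genotype (Villin-Cre, EP4 cKO) was hybridized to 1 Agilent mouse array (Cy3), and each array was assigned to its genotype by the labels. The authors deposited the scanner intensity of every spot (Feature Extraction 12.0.3.1 per the file headers, 11.5.1.1 per the labels), with the background subtracted and spatial trends removed, and its flags as other columns. Their scaling to a trimmed mean of 2500, over probe intensities without 2% at each end, is not in the deposited intensities. It was applied here (factors of 3.45 and 2.68) after steps that the methods do not state. Control spots and any spot that the software called an outlier on either array (814 of 62976) were dropped. The spots of a probe were then averaged.

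Probes were named through RefSeq accessions (GRCm38.p6); 32989 of 56593 matched (58.3%). The array grid refers to another build, so coordinates are given only for RefSeq promoters. A gene was represented by its brightest probe well above background on at least 1 array. The dim side of a probe was raised to the floor of that array where its own signal was lower, and a bound that did not exceed 1 was set to a log2 ratio of 0. The number of arrays limits the precision. With 1 array per genotype there was nothing to test or to leave out, and the error given is that of the software for each spot, combined for a ratio.

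Members and lists were chosen with earlier results of these data known, and the value of a single listed gene is not reported here and was left out of its list. Named genes are the members, the rest of the family, Ptger4, the neighbours of the clusters, the genes of nearest log2 ratio and up to 3 genes of each list with the largest changes; the other genes of the interferon gamma and inflammasome lists, Irgm1 and some markers were added after their values were seen. Alternatives were scaling to the 75th percentile, to all spots or to the E1A control spots, normexp (offset 50, on median signals) with quantile normalization, loess (span 0.3), filters on dim probes, one floor for both arrays, the mean of all probes, and thresholds of 3-fold and 1.5-fold. The steps were tested on simulated data. Scripts ran in R 4.3.3 (limma 3.58.1) and Python 3.11.15 (pandas 2.3.3, numpy 2.4.6, matplotlib 3.10.9, statsmodels 0.14.6).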

Additional observations from a re-analysis of the deposited data

How the results depend on the processing

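The count of members more than 2-fold higher was 7 under each alternative except 2. When both arrays had to measure a gene, 4 members had a value and 3 were higher, and without a filter on dim probes 9 had a value and 8 were higher, with Gbp9, dim on both arrays, at 1.07. Without that filter 5.12% of all genes passed 2-fold upward and 31.7% downward. The median log2 ratio of the members was 1.93 after normexp with quantile normalization, 3.11 after loess, 3.63 with the E1A control spots, 4.03 without a filter on dim probes and 4.27 over members measured on both arrays. Scaling to the E1A control spots raised the median of all genes by 0.97 and the share more than 2-fold higher to 39.3%. Under it Gbp10 was at 0.40, Ptger4 at 0.90, and the genes more than 2-fold higher were 12 for interferon gamma signalling (median 1.76), 6 for the dynamin list (1.16), 4 for CaaX processing (1.02), 6 for LC3 conjugation (1.03) and 5 for inflammasomes (1.57), with a median of 5.77 for the immunity-related GTPases. The medians of the CaaX and LC3 lists, both -0.01, were also above 0 after loess (0.11 and 0.064), normexp (0.046 and 0.067), the 75th percentile (0.14 and 0.15) and a trimmed mean over all spots (0.12 and 0.12). Ptger4 was at 0.019 with the 75th percentile and at 0.23 as the mean of its probes, and with the mean of probes 0 genes of the dynamin list, 4 for interferon gamma signalling and 2 for inflammasomes were higher. Interferon gamma signalling had 6 with the 75th percentile and after loess. The E1A shift follows from its construction, and the cause of the other moves was not tested. No paired analysis was possible because each genotype has 1 array. Signals near the floor limit the folds of Gbp4, Gbp5, Gbp6 and Gbp8, and give none for Gbp9.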
